A study of Rattus norvegicus with 311 samples.

Results

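The genes described here are the matrix proteases of the MMP, ADAM and ADAMTS families and their TIMP inhibitors, measured in rat liver cell cultures. They were taken by name: every row of the probe count table whose gene name begins with Mmp, Timp, Adam or Adamts followed by a digit. That gave 72 probe rows for 70 gene names, of 22253 rows and 21143 names in the table, and 2 names, Mmp3 and Adamts10, had 2 probes each. By role they were 16 rows of secreted MMPs, 6 of membrane-bound MMPs, 4 of TIMPs, 10 of ADAMs with a protease site, 3 of brain-type ADAMs without one, 13 of other ADAMs, 7 of ADAMTS proteoglycanases, 3 of ADAMTS procollagen N-proteinases and 10 of other ADAMTS genes. Of the 72 rows, 43 (41 names) had enough counts to be tested in at least 1 of 4 fits. The other 29 rows were not tested anywhere: their totals over all libraries were 9 to 460 counts. Their highest group mean was 7.01 CPM (a probe's counts per 1000000 counts of its library, with library totals scaled by trimmed mean of M values, TMM). They included 12 of the 13 rows of the other ADAM group, whose genes are known mainly from testis and epididymis.

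Matrix metalloproteinases are zinc enzymes that cut collagens, gelatin, laminin and other proteins around cells, and the membrane-bound ones act at the cell surface, where Mmp14 also activates the Mmp2 proenzyme. ADAM proteins sit in the membrane and release the outer parts of neighbouring membrane proteins, while ADAMTS proteins are secreted and trim procollagens and proteoglycans. TIMPs block the active sites of these enzymes, and in injured liver activated stellate cells are the best known source of several of them, among them Timp1, Mmp2 and Adam12.

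The cultures held primary hepatocytes, and the co-cultures also non-parenchymal cells (NPCs: liver cells other than hepatocytes), of male Sprague Dawley rats. Both kinds of cell came from Lonza, and the NPCs had been purified by centrifugation over a density gradient. The source label of a library names the cells that were seeded, but no cell number, sort or animal is given. Cells were seeded on collagen-coated multiwell plates and lysed on days 1, 3 and 7 after plating, each well having had its compound or vehicle for the last day before lysis. The groups were phenobarbital (a classic inducer of liver drug metabolism through the receptor CAR) at 0.1, 1 and 10 mM, gemfibrozil (a fibrate, which acts through PPARα) at 10, 100 and 1000 µM, GW7647 (a synthetic PPARα agonist) at 0.01, 0.1 and 1 µM, ketoconazole (an azole antifungal) at 1, 10 and 30 µM, and vehicle (wells labelled as an untreated vehicle control), each in co-culture and in monoculture on the 3 days. This made 78 groups, with 155 libraries from co-culture and 156 from monoculture: 65 groups had 4 libraries, 7 had 3 and 6 had 5. Library names carry a plate number, 1, 3, 5 or 7, and 9 for some day 3 wells of gemfibrozil and GW7647. The libraries of a group stood on different plates, and the labels call them biological replicates. No label ties them to separate animals, so a p value reflects only how these libraries vary, and that variation may be technical. Values below are given in the order of plates 1, 3, 5 and 7 unless stated. Library totals ran from 412414 to 12272575 counts (median 6054414), and 1 library was under 1000000. The 33 monoculture phenobarbital libraries carry ketoconazole in their compound label, and were grouped by the phenobarbital in their description. Another 3, of GW7647 at 0.1 µM in co-culture on day 3, carry 1 µM in their dose label. The dose label of phenobarbital reads µM where the series' design text gives mM, and mM is used here.

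Expression was measured with TempO-Seq, in which pairs of short probes are ligated on a target RNA and the ligated products are counted. Probes differ in how well they work, so a CPM compares samples for 1 gene and never 1 gene with another. In such bulk lysates, fewer cells of a type and less RNA per cell cannot be told apart.

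Promoter sequences from RefSeq (rat build GRCr8, 250 bases before to 50 after the start site) were found for 44 of the 70 names. MMP promoters are known for sites of AP-1, the factor built of Fos and Jun proteins, so the AP-1 core TGANTCA was searched. Its reverse complement is the same motif, so 1 search covers both strands. It was found in 9 of 51 member promoters (17.6%), those of Adam19, Adam24, Mmp1, Mmp10, Mmp12, Mmp13, Mmp20, Mmp3 and Mmp7, and in 2453 of all 33469 promoters of 300 bases in the table (7.33%). The 51 belong to the 44 names: Adamts13 and Adamts17 had several, mostly overlapping and without the motif. These are therefore shares of promoter windows and not of genes. Promoters are shown for Adam19 and Adam12, which were both higher on the later days, and for Mmp7 and Mmp3, whose matches lie closer to the start than that of Adam19, with the motif in capitals. That of Adam19 is chr10:30992511-30992810, plus strand, with the motif starting 169 bases before the start site.
Adam19: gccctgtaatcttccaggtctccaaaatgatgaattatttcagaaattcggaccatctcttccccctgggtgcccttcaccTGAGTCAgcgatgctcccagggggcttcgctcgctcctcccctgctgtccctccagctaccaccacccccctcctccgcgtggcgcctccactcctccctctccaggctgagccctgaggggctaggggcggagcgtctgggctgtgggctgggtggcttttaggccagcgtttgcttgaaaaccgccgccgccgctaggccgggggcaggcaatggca
The Adam12 promoter, chr1:198443631-198443930, minus strand, held no match in this window.
Adam12: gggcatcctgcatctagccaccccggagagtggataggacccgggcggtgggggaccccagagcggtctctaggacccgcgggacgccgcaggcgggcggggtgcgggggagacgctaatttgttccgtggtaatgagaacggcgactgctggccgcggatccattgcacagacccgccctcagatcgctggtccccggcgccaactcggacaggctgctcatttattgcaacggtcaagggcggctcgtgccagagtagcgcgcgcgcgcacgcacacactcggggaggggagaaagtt
In Mmp7, chr8:13132793-13133092, plus strand, the motif starts 80 bases before the start site.
Mmp7: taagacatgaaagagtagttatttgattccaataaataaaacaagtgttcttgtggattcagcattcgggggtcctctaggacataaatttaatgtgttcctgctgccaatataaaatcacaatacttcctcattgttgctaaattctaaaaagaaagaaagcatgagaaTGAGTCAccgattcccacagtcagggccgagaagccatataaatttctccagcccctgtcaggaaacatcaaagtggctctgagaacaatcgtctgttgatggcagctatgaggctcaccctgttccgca
In Mmp3, chr8:12925031-12925330, plus strand, it starts 71 bases before.
Mmp3: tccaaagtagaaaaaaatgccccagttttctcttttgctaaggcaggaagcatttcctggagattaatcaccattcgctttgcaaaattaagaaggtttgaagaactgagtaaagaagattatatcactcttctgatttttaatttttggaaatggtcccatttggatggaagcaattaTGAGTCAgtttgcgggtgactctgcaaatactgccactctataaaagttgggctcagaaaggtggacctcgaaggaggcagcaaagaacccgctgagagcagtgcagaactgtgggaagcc
A match of these letters is a description of the window, not a mapped binding site.

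The first question the design puts is how the genes behave as the cultures age. In vehicle wells, 16 of the 36 members tested were higher and 1 was lower on day 7 than on day 1 in co-culture, at an adjusted p under 0.05 in edgeR's quasi-likelihood test (all adjusted p values are of this test unless another is named). Over all 11823 probes tested, 15.2% were higher and 7.56% lower. In monoculture 13 members were higher and 1 lower, against 13.7% and 8.75% of all probes. In co-culture 14 members were higher and 1 lower on day 7 than on day 3 (11.8% and 6.69% of all probes), and in monoculture 11 and 1 (8.14% and 7.54%). On day 3, 3 members were above day 1 in co-culture and 2 in monoculture (4.11% and 1.76% of all probes), and none was below it (4.95% and 0.761%). The median change of the members on day 7 against day 1 was 2.03 on the log2 scale in co-culture and 1.70 in monoculture, and that of all probes was 0.22 and 0.24. The count filter kept a probe with enough counts in some libraries, of whatever day. A member near 0 on day 1 could therefore be called higher on day 7 but not lower. Such members, included above, were Adam33, Mmp7, Timp2 and Adam4 in co-culture (0 or 1 counts on day 1) and Mmp16, Adam33 and Mmp2 in monoculture (0 to 2 counts). The 13 members higher in monoculture were all among the 16 of co-culture: Adam12, Adam19, Adam23, Adam33, Adamts1, Adamts2, Adamts12, Adamts15, Mmp2, Mmp16, Mmp23, Timp1 and Timp2. In edgeR with all plates and no plate term, Adam4, Adamts6 and Mmp7 passed in co-culture alone. DESeq2, also without a plate term, called Adamts6 and Mmp7 in monoculture too. Timp3 was the member that fell in both. A test of whether the change differed between the cultures called 0 members and 0 probes in edgeR, with 1 member, Timp2, at an unadjusted p under 0.05 (0.0395). The counts rested on single plates in part: the 17 calls of co-culture became 11 without plate 3, and the 14 of monoculture became 6 without plate 5. For day 7 against day 3, the 15 calls of co-culture became 8 without plate 3 and 9 without plate 1, and the 12 of monoculture became 1 without plate 5, 5 without plate 1 and 5 in a fit of all libraries.

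Among the ADAMs with a protease site, Adam19, a sheddase of neuregulins and other growth factors, changed most steadily. In co-culture vehicle it had 1.82, 1.30, 2.44 and 2.28 CPM on day 1, then 12.3, 30.5, 16.1 and 9.96 CPM on day 3 and, on day 7, 75.7, 125, 171 and 83.8 CPM. The monoculture had 2.93, 1.57, 1.64 and 0.327 CPM on day 1, 9.38, 27.4, 11.8 and 13.8 CPM on day 3 and, on day 7, 75.7, 52.1, 210 and 71.4 CPM. The 3 days did not overlap in either culture. On the log2 scale, day 7 was above day 1 by 5.86 ± 0.58 (SE) in co-culture (adjusted p = 4.22e-07) and by 6.02 ± 0.58 in monoculture (adjusted p = 3.39e-07). Day 3 was already above day 1, by 3.18 ± 0.53 in co-culture (adjusted p = 8.64e-04) and 3.28 ± 0.53 in monoculture (adjusted p = 0.00103). In a single fit of all libraries these day 3 values missed the threshold, at adjusted p = 0.0513 and 0.0997.

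Adam12, which cleaves insulin-like growth factor binding proteins and marks activated stellate cells, followed the same course. Co-culture vehicle gave 1.01, 0, 0.333 and 0.190 CPM on day 1, 7.66, 18.4, 13.2 and 9.21 CPM on day 3 and, on day 7, 49.3, 69.6, 91.3 and 37.0 CPM. Monoculture vehicle gave 1.39, 0.572, 0.547 and 0 CPM on day 1, 0, 12, 11.3 and 6.55 CPM on day 3 and, on day 7, 32.6, 18.6, 98.0 and 20.7 CPM. Apart from the monoculture library of plate 1 on day 3, at 0, each day stood above the one before. The day 7 excess over day 1 was 7.29 ± 0.95 on the log2 scale in co-culture (adjusted p = 1.42e-05) and 6.06 ± 0.88 in monoculture (adjusted p = 5.01e-05). On day 3 the excess over day 1 was 4.99 ± 0.91 in co-culture (adjusted p = 0.00171) and 3.55 ± 0.83 in monoculture (adjusted p = 0.0211). The monoculture day 3 call was lost without plate 3, 5 or 7 or in the fit of all libraries, with adjusted p up to 0.175.

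Adam33, an ADAM of mesenchymal cells, was hardly counted on day 1. On day 7 it had 16.6, 51.5, 6.08 and 1.17 CPM in co-culture and 10.9, 3.90, 30.7 and 0.407 CPM in monoculture, against day 1 values of 0, 0, 0.111 and 0 in co-culture and 0 in all 4 libraries of monoculture. Every day 7 library was above every day 1 library. With a single count on day 1, the pooled co-culture ratio was 379 (95% exact counting interval 67.7 to 15000), and monoculture was at least 92.6-fold higher on day 7, taking 3 counts over the group as the floor. The adjusted p was 0.00142 in co-culture and 0.00154 in monoculture, where the call was lost without plate 5 (0.0518). The widely expressed sheddases did not pass: Adam17, which releases TNF, changed by 0.33 ± 0.45 in co-culture and 0.17 ± 0.45 in monoculture on the log2 scale (adjusted p = 0.629 and 0.815), and Adam10, the Notch sheddase, by −0.02 ± 0.67 and 0.45 ± 0.67 (adjusted p = 0.985 and 0.662).

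Adam23, a brain-type ADAM that binds integrins and has no protease activity, had 11.6, 15.8, 50.7 and 22.1 CPM in co-culture on day 7, against 1.01, 0, 0.887 and 0.762 CPM on day 1. In monoculture it had 8.37, 3.43, 46.4 and 1.49 CPM on day 7, against 0.139, 0.716, 1.64 and 0 CPM. Co-culture days were well apart, while the monoculture library of plate 7 on day 7 lay below the day 1 library of plate 5. The log2 change was 5.18 ± 1.13 in co-culture (adjusted p = 0.00232) and 4.64 ± 1.12 in monoculture (adjusted p = 0.00487, and 0.0762 without plate 5). Adam4, the tested row of the group known from testis, was at 0 in all 4 co-culture libraries of day 1. On day 7 it had 2.84, 1.88, 0 and 2.13 CPM there, at least 14.5-fold higher over the group (adjusted p = 0.0263). That call was lost when any 1 plate was left out. In monoculture Adam4 had 2.54, 1.40, 1.82 and 0.949 CPM on day 7 against 0, 0.859, 0 and 0 CPM on day 1, which passed with the plate as a block (adjusted p = 0.0456) and not without it (0.165).

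The secreted ADAMTS genes held some of the widest ranges. Adamts1, which cuts the proteoglycans versican and aggrecan, had 294, 615, 942 and 152 CPM in co-culture on day 7, against 19.2, 9.29, 7.65 and 11.4 CPM on day 1. Its monoculture values were 218, 136, 960 and 61.5 CPM on day 7, against 26.6, 6.58, 5.83 and 8.68 CPM on day 1. No library of one day reached into the range of the other, and plate 5 was highest on day 7 in both cultures. The log2 change was 5.43 ± 1.02 in co-culture (adjusted p = 6.08e-04) and 4.90 ± 0.99 in monoculture (adjusted p = 0.00125). Adamts15, another proteoglycanase, had 4.83, 14.7, 15.4 and 7.04 CPM in co-culture on day 7, against 0.607, 0, 0.776 and 0.762 CPM, and 5.68, 7.18, 25.4 and 9.76 CPM in monoculture, against 0, 1.72, 0.182 and 0.164 CPM. Here too the days stood clear of each other in both cultures, with log2 changes of 4.22 ± 1.04 (adjusted p = 0.00550) and 4.53 ± 1.04 (adjusted p = 0.00353, and 0.0904 without plate 5).

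Adamts2, which removes the N-terminal propeptides of fibrillar procollagens, had 17.2, 27.5, 126 and 8.64 CPM in co-culture on day 7, against 0.202, 0, 1.89 and 0 CPM on day 1. Monoculture had 27.2, 5.15, 89.2 and 7.59 CPM on day 7, against 1.25, 0.429, 1.46 and 0.164 CPM. The days did not overlap, and the plate 5 library was several times above the others of its group on day 7. The change was 6.11 ± 1.35 on the log2 scale in co-culture (adjusted p = 0.00252) and 5.32 ± 1.30 in monoculture (adjusted p = 0.00540, and 0.0522 without plate 5). Adamts14, with the same known activity, gave 1.42 ± 0.77 and 1.67 ± 0.76 (adjusted p = 0.184 and 0.115).

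Of the other ADAMTS genes, Adamts12 had 22.6, 21.1, 34.9 and 6.30 CPM in co-culture on day 7, against 0, 0.864, 2.44 and 0.952 CPM on day 1. In monoculture it had 24.8, 10.6, 23.9 and 2.03 CPM on day 7, against 1.95, 1.72, 1.82 and 2.78 CPM on day 1. Plate 7 was the lowest on day 7 in both cultures, and in monoculture it lay within the day 1 range. The log2 change was 4.25 ± 1.00 in co-culture (adjusted p = 0.00396) and 2.98 ± 0.93 in monoculture (adjusted p = 0.0244), and the monoculture call was lost without plate 1, 3 or 5, with adjusted p up to 0.198. Adamts6 had 29.3, 12, 9.89 and 8.11 CPM in co-culture on day 7, against 3.44, 3.67, 2.88 and 2.67 CPM on day 1, a log2 change of 2.30 ± 0.73 (adjusted p = 0.0268, and up to 0.136 without plate 1, 3 or 5 or in the fit of all libraries). In monoculture Adamts6 had 20.5, 13.3, 25.7 and 3.66 CPM on day 7, against 3.48, 10.2, 3.46 and 0.818 CPM, with overlapping days. That change passed with the plate as a block (adjusted p = 0.0352), with DESeq2 and without plate 3. It did not pass in edgeR with all plates and no block (0.0589).

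Of 8 rows of secreted MMPs tested, 2 were higher on day 7 in co-culture and 1 in monoculture, beside the 15.2% and 13.7% of all probes given above, and their median log2 change was 0.12 and 0.80. The one in both was Mmp2, gelatinase A, which cuts denatured collagen and basement membrane. It had 9.94, 23.1, 45.3 and 7.36 CPM in co-culture on day 7, against 0.810, 0, 0 and 0.571 CPM on day 1, and 6.88, 6.08, 37.8 and 6.64 CPM in monoculture, against 0, 0.286, 0 and 0 CPM. All day 7 libraries were above all day 1 libraries. The co-culture change was 5.99 ± 1.09 on the log2 scale (adjusted p = 4.29e-04). Monoculture had 2 counts in all on day 1, and the pooled ratio was 176 (95% exact counting interval 48.3 to 1458; adjusted p = 2.24e-04). Most of that change came after day 3, when co-culture vehicle had 0, 0, 0 and 0.249 CPM of Mmp2 and monoculture 2.04, 0.669, 0 and 0.531 CPM.

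Mmp7, matrilysin, had 1.70, 1.13, 6.94 and 3.52 CPM in co-culture on day 7, against 0, 0, 0.111 and 0 CPM on day 1. All 4 day 7 libraries were above the day 1 libraries, which held 1 count in all, and the pooled ratio was 78.9 (95% exact counting interval 13.8 to 3150; adjusted p = 0.0120). The call was lost without plate 3 or without plate 5. In monoculture Mmp7 had 1.20, 1.09, 0.166 and 1.49 CPM on day 7, against 0, 0, 0.182 and 0 CPM, and plate 5 was lower on day 7. The monoculture change passed with the plate as a block (adjusted p = 0.0454) and with DESeq2, and not in edgeR without the block (0.0579). Mmp9, gelatinase B of neutrophils and macrophages, changed by −0.26 ± 1.38 in co-culture and 0.10 ± 1.38 in monoculture on the log2 scale. Mmp12, macrophage elastase, changed by −0.30 ± 1.37 and −0.46 ± 1.44. Both had wide standard errors, so neither a rise nor a fall of several-fold was detectable. Mmp19, an MMP of many tissues, was at 82.9, 95.4, 210 and 103 CPM in co-culture on day 7, against 130, 155, 157 and 150 CPM on day 1, a change of −0.22 ± 0.26 (adjusted p = 0.560).

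Among the 6 membrane-bound MMPs, 2 were higher on day 7 in both cultures. Mmp23, an MMP with an unusual cell-surface anchor at its N-terminal end, had 35.2, 48.3, 115 and 6.62 CPM in co-culture on day 7, against 0, 0.216, 0.444 and 0 CPM on day 1. Its monoculture values were 25.4, 13.4, 88.9 and 6.50 CPM on day 7, against 0.976, 2.00, 1.82 and 0 CPM. Plate 5 was highest and plate 7 lowest on day 7 in both cultures, and even plate 7 was above all day 1 libraries. The log2 change was 7.89 ± 1.28 in co-culture (adjusted p = 1.46e-04) and 4.85 ± 1.05 in monoculture (adjusted p = 0.00222). With the plate as a block, Mmp23 also passed on day 3 in co-culture, at 3.42 ± 1.05 above day 1 (adjusted p = 0.0334).

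Mmp16, which like Mmp14 can activate Mmp2, had 4.97, 7.71, 25.9 and 5.12 CPM in co-culture on day 7, against 0.810, 0, 0.776 and 0 CPM on day 1. In monoculture it had 2.54, 1.72, 27.9 and 1.49 CPM on day 7, against 0 in all 4 libraries on day 1. The days did not overlap in either culture. The co-culture change was 4.63 ± 1.55 on the log2 scale (adjusted p = 0.0355, and up to 0.128 without plate 1, 3 or 7), and monoculture was at least 67.0-fold higher (adjusted p = 0.00704). Mmp14 did not pass the test. It had 178, 197, 306 and 175 CPM in co-culture on day 7, against 247, 165, 240 and 123 CPM on day 1, and 174, 245, 202 and 230 CPM in monoculture, against 254, 166, 295 and 143 CPM. The ranges overlapped, with log2 changes of 0.18 ± 0.29 and 0.08 ± 0.29 (adjusted p = 0.683 and 0.871).

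**Figure D1:**
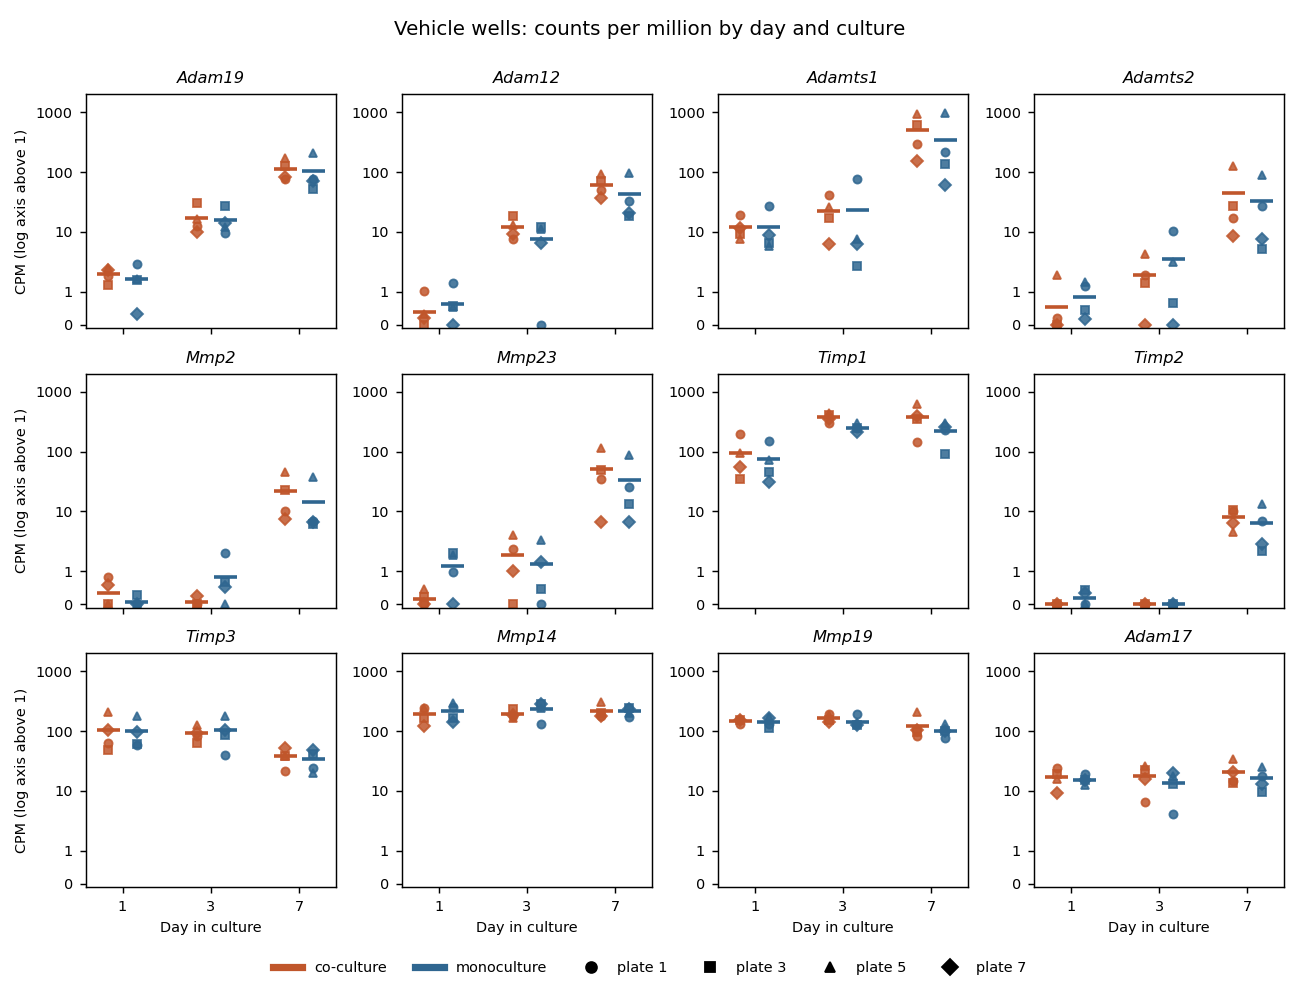
CPM of single vehicle libraries on days 1, 3 and 7, in co-culture and monoculture, with 1 panel a gene and an axis that is logarithmic above 1 CPM. Points are libraries, their shape gives the plate, and bars are group means. Adam19 and Adam12 are higher on each later day apart from 1 monoculture library at 0, Timp3 is lower on day 7, and Mmp14 lies in the same range on all 3 days.

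The TIMPs, the inhibitors, did not move together. Timp1, the inducible inhibitor that is a common marker of liver fibrosis, had 197, 34.8, 93.5 and 54.5 CPM in co-culture on day 1, 297, 407, 445 and 347 CPM on day 3 and, on day 7, 142, 347, 623 and 388 CPM. Monoculture had 150, 45.8, 72.9 and 30.6 CPM on day 1, 243, 249, 302 and 212 CPM on day 3 and, on day 7, 226, 92.5, 296 and 255 CPM. Day 3 stood clear of day 1 in both cultures, while on day 7 plate 1 of co-culture and plate 3 of monoculture lay within the day 1 range. Against day 1, day 7 was higher by 2.00 ± 0.51 on the log2 scale in co-culture (adjusted p = 0.00684, and up to 0.0811 without plate 3 or 5) and by 1.61 ± 0.50 in monoculture (adjusted p = 0.0240, and up to 0.192 without plate 5 or 7 or in the fit of all libraries). On day 3 the excess was 2.04 ± 0.51 in co-culture (adjusted p = 0.0146, and up to 0.131 without plate 3, 5 or 7 or in the fit of all libraries). The monoculture day 3 value missed the threshold (adjusted p = 0.0552) and passed it with the plate as a block (1.95 ± 0.46, adjusted p = 0.0158).

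Timp2, an inhibitor that also takes part in the activation of Mmp2 by Mmp14, was at 0 in all 4 co-culture libraries on day 1 and had 10.2, 10.5, 4.51 and 6.30 CPM on day 7. That was at least 61.6-fold higher (adjusted p = 5.51e-04). Monoculture had 6.88, 2.18, 13.3 and 2.85 CPM on day 7, against 0, 0.429, 0 and 0.327 CPM on day 1, a log2 change of 4.97 ± 1.04 (adjusted p = 0.00374, and 0.0551 without plate 5). In both cultures every day 7 library was above every day 1 library. Timp3, the inhibitor bound to the matrix, which also blocks Adam17, went the other way: it had 21.3, 38.7, 37.5 and 52.4 CPM in co-culture on day 7, against 62.2, 48.8, 205 and 104 CPM on day 1. In monoculture it had 24.1, 41.2, 19.6 and 48.7 CPM, against 59.0, 61.4, 178 and 96.6 CPM. Monoculture days did not overlap, and in co-culture only plate 7 of day 7 lay above the lowest day 1 library. Timp3 fell by 1.45 ± 0.47 on the log2 scale in co-culture (adjusted p = 0.0279, lost when any 1 plate was left out or in the fit of all libraries, up to 0.125) and by 1.46 ± 0.47 in monoculture (adjusted p = 0.0273, lost without plate 1 or 5 or in the fit of all libraries, up to 0.179). Timp4, the TIMP with the most restricted expression, was too low to be tested: it was at 0 in all vehicle libraries on days 1 and 3 and had 0, 0.752, 0 and 0.534 CPM in co-culture and 0, 0.156, 0 and 1.08 CPM in monoculture on day 7 (9 counts in each).

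**Figure D2:**
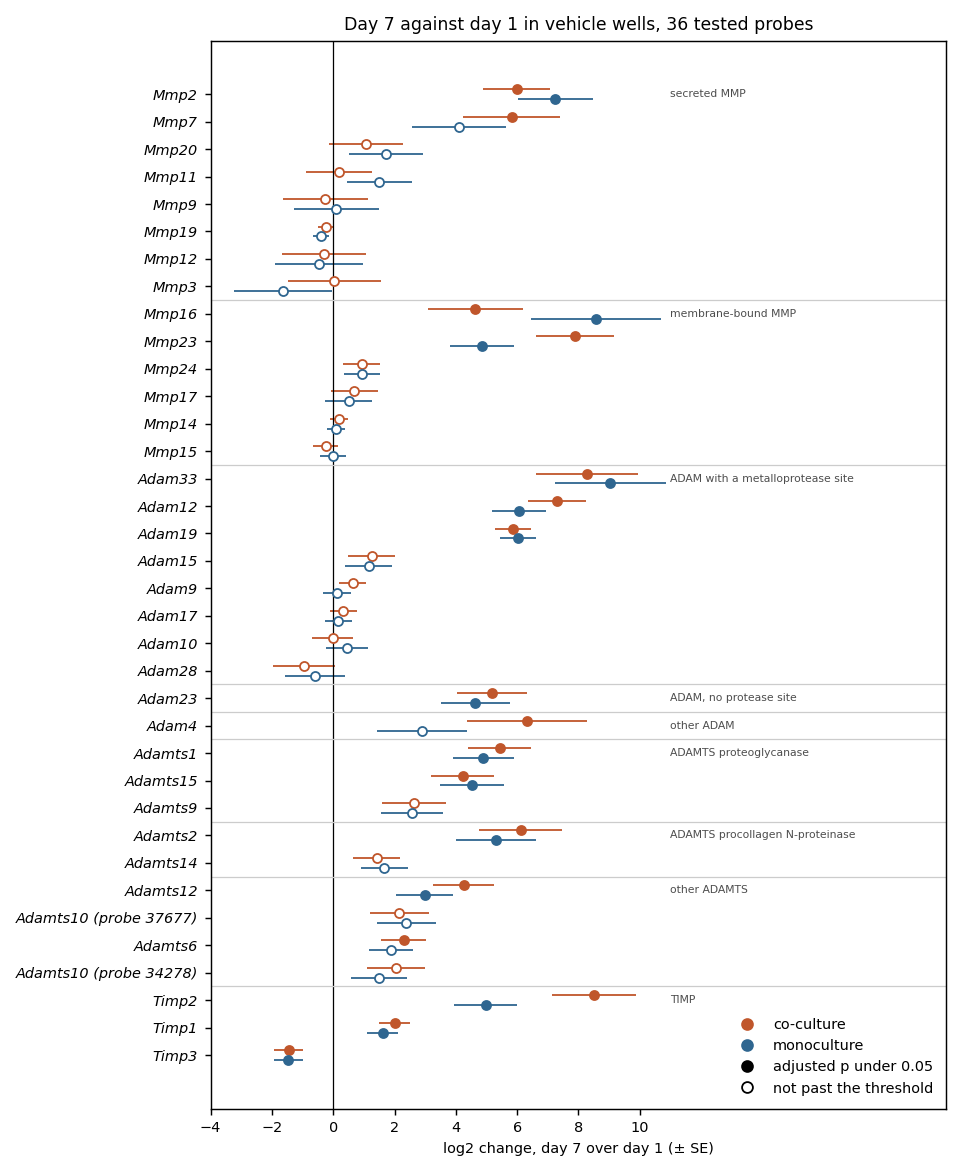
Log2 change of each tested member on day 7 against day 1 in vehicle wells, co-culture and monoculture, with bars of 1 standard error, grouped by role. Most ADAMTS and several ADAM genes lie well to the right of 0, Timp3 lies to the left, and Mmp14, Mmp19 and Adam17 lie near 0.

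Markers of several cell types also changed with time in vehicle, while those of endothelial cells were called about as often as all probes. The summed level of 19 stellate and mesenchymal marker probes (collagens, desmin, smooth muscle actin and others) was 3539 to 19013 CPM in co-culture vehicle on day 7 (median 7782), against 107 to 323 CPM on day 1. In monoculture it was 1548 to 14044 CPM on day 7 (median 3207), against 92.6 to 417 CPM on day 1. All 14 tested of them were higher on day 7 in co-culture and 13 of 14 in monoculture, and plate 5, the highest for several members above, was also the highest for this sum. Col1a1, Lum and Postn were at 0 on day 1 in both cultures, Thy1 in co-culture and Ngfr in monoculture. Markers of cholangiocytes and liver progenitors summed to 856 to 2075 CPM in co-culture on day 7, against 111 to 214 CPM on day 1, and to 904 to 2378 CPM in monoculture, against 123 to 187 CPM, and 7 of 10 tested were higher in each culture. On day 1 the defining markers Krt7 and Muc1 were at 0 in both cultures, and Cftr in co-culture. Macrophage markers summed to 967 to 1940 CPM in co-culture on day 7, against 125 to 225 CPM on day 1, and to 340 to 746 CPM in monoculture, against 116 to 241 CPM. Of 13 tested, 8 were higher and 2 lower in co-culture, and 6 and 1 in monoculture. The macrophage marker Timd4 was at 0 on days 1 and 7 in both cultures, and Adgre1 on day 7 in monoculture. Of 12 endothelial markers 2 were higher in each culture, near the 15.2% of all probes in co-culture and 13.7% in monoculture. Their median log2 change was 1.16 in co-culture and −1.47 in monoculture. Hepatocyte markers summed to 15706 to 23657 CPM in co-culture on day 7, against 54367 to 112931 CPM, and to 5109 to 31694 CPM in monoculture, against 48286 to 72221 CPM. Of 19 tested, 9 and 7 were lower, beside 7.56% and 8.75% of all probes. The part of these cell types in the protease changes was not tested.

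Of the substrates and partners of the enzymes, 26 of 34 matrix substrates tested were higher and 1 lower on day 7 in co-culture, and 25 were higher in monoculture. Of all probes, 15.2% were higher and 7.56% lower in co-culture, and 13.7% and 8.75% in monoculture. The plasminogen system and shed protein lists below lay much closer to these shares than the matrix substrates. Col1a1, a chain of type I collagen, was at 0 on day 1 in both cultures and higher on day 7 in each (adjusted p = 6.75e-05 in co-culture and 1.42e-04 in monoculture). Of 14 probes of the plasminogen system, 3 were higher and 3 lower in co-culture, and 3 and 2 in monoculture. Its serpin Serpine2, near 0 on day 1, was higher on day 7 in both cultures (adjusted p = 2.88e-04 in co-culture and 9.34e-04 in monoculture). Plg, the plasminogen of hepatocytes, fell by 3.98 ± 0.70 and 3.55 ± 0.69 (adjusted p = 3.36e-04 and 8.87e-04). Other protease regulators split, with 10 of 29 higher and 4 lower in each culture. Pcolce, which enhances procollagen C-proteinase, was higher by 5.69 ± 0.80 in co-culture and 6.91 ± 0.90 in monoculture on the log2 scale (adjusted p = 3.36e-05 and 1.58e-05), and the lysosomal protease Ctsl fell by 1.66 ± 0.38 and 1.91 ± 0.39 (adjusted p = 0.00343 and 0.00122). Among proteins that ADAMs and MMPs are known to shed, 6 of 28 were higher and 2 lower in co-culture, and 6 and 1 in monoculture. Jag1, a Notch ligand, was higher by 2.65 ± 0.47 in co-culture and 3.21 ± 0.48 in monoculture (adjusted p = 3.44e-04 and 6.49e-05). Of 19 probes of AP-1 and other early response factors, 5 were higher and 5 lower in co-culture, and 4 and 5 in monoculture. Fos was higher by 4.49 ± 0.88 in co-culture and 3.95 ± 0.85 in monoculture (adjusted p = 9.26e-04 and 0.00217), and Junb fell by 1.15 ± 0.27 and 1.20 ± 0.27 (adjusted p = 0.00353 and 0.00262).

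As to the labels, none of the 20 hepatocyte marker probes was at 0 throughout the vehicle libraries of day 1 in either culture, and markers of other liver cells were counted in wells seeded with hepatocytes alone. Over all wells of day 1, macrophage markers summed to 53.6 to 253 CPM in co-culture (median 134) and 26.9 to 417 CPM in monoculture (median 121), and endothelial markers to 38.9 to 178 CPM (median 74.3) and 19.5 to 161 CPM (median 47.2).

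The second comparison sets co-culture against monoculture on the same day. In vehicle wells alone edgeR called 0 members on any day, without or with the plate as a block, and 0% of all probes were called there. Before adjustment 1, 2 and 0 members passed a p of 0.05 without the block, and the DESeq2 count was 0. Over all wells of a day, fitted by treatment, edgeR without a plate term also called 0 members. Of all probes it called 0.288% on day 1, 0.126% on day 3 and 0.117% on day 7. In that fit 10, 5 and 2 members had an unadjusted p under 0.05, and DESeq2 called 1, Mmp12 on day 1. With the plate as a block edgeR called 15, all higher in co-culture: 3 on day 1, 1 on day 3 and 11 on day 7, against 1.82%, 0.908% and 2.94% of all probes called in either direction.

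On day 1 these were Mmp12, Mmp9 and Timp1. Mmp12 averaged 1.89 CPM over 52 co-culture wells (0 to 7.79, median 1.04) and 0.758 CPM over 52 monoculture wells (0 to 5.28, median 0.229). Mmp9 averaged 2.71 CPM in co-culture (0 to 14.7, median 1.60) and 1.39 CPM in monoculture (0 to 10.6, median 0.608), and Timp1 77.0 CPM (13.4 to 215, median 51.8) and 58.1 CPM (6.93 to 181, median 39.1). The ranges overlapped widely, and wells of the same plate and treatment were compared: co-culture was the higher in 38 of 52 pairs for Mmp12, 44 of 52 for Mmp9 and 43 of 52 for Timp1. The blocked differences were 1.58 ± 0.36, 1.12 ± 0.26 and 0.45 ± 0.12 on the log2 scale (adjusted p = 0.00608, 0.00657 and 0.0203), and without the block 1.65 ± 0.43, 1.10 ± 0.38 and 0.38 ± 0.22 (adjusted p = 0.0671, 0.271 and 0.787).

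The 1 member called on day 3 was Adam23, with a blocked difference of 1.55 ± 0.41 on the log2 scale (adjusted p = 0.0432) and an unblocked one of 1.44 ± 0.45 (adjusted p = 0.265). It averaged 0.969 ± 1.09 CPM over 52 co-culture wells and 0.658 ± 1.27 CPM over 52 monoculture wells that day (SD), with co-culture the higher in 28 of 50 pairs and the lower in 16. On day 7 the 11 called were Adam23, Adam12, Adamts1, Mmp16, Mmp23, Adam33, Mmp3, Mmp2, Adamts12, Adamts2 and Adamts14. For Mmp3 this was probe 37226, and its other probe was too low to be tested that day. All 11 but Mmp3 and Adamts14 were also higher on day 7 than on day 1 in vehicle of both cultures. Adam12 averaged 52.0 CPM over 51 co-culture wells (15.0 to 109, median 42.3) and 40.4 CPM over 52 monoculture wells (0 to 98.0, median 25.1), and co-culture was the higher in 39 of 51 pairs. Its blocked difference was 0.57 ± 0.12 (adjusted p = 0.00177) and its unblocked one 0.36 ± 0.20 (adjusted p = 0.955). Adam23 averaged 19.0 CPM (1.87 to 65.9, median 12.7) in co-culture and 13 CPM (0 to 46.7, median 3.96) in monoculture, with co-culture the higher in 42 of 51 pairs. Its blocked difference was 1.12 ± 0.22 (adjusted p = 7.06e-04), and 0.63 ± 0.32 without the block (adjusted p = 0.955). For Adamts1 they were 0.75 ± 0.16 (adjusted p = 0.00233) and 0.30 ± 0.29 (adjusted p = 0.955).

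The plates did not show it alike. On day 7 Adam12 averaged 46.4 CPM in co-culture and 16.6 CPM in monoculture on plate 3, and 28.5 and 16.0 CPM on plate 7. On plate 5 it averaged 88.6 CPM in co-culture and 81.5 CPM in monoculture, and on plate 1 43.8 and 47.4 CPM. Adam23 averaged 9.64 CPM in co-culture and 2.96 CPM in monoculture on plate 3, 12.4 and 1.31 CPM on plate 7, 43.5 and 30.3 CPM on plate 5 and 9.88 and 17.5 CPM on plate 1. So plates 3 and 7 had the clearest excess in co-culture, and plate 1 had the means the other way round. Stellate and mesenchymal markers summed to 852 to 19298 CPM in co-culture wells on day 7 (median 5619) and 271 to 20666 CPM in monoculture wells (median 2426), with none at 0, and 10 of 18 were called higher in co-culture with the block. Endothelial markers summed to 22.9 to 374 CPM (median 124) in co-culture and 10.3 to 217 CPM (median 54.5) in monoculture, with 7 of 13 called. Their part in the difference was not tested.

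**Figure D3:**
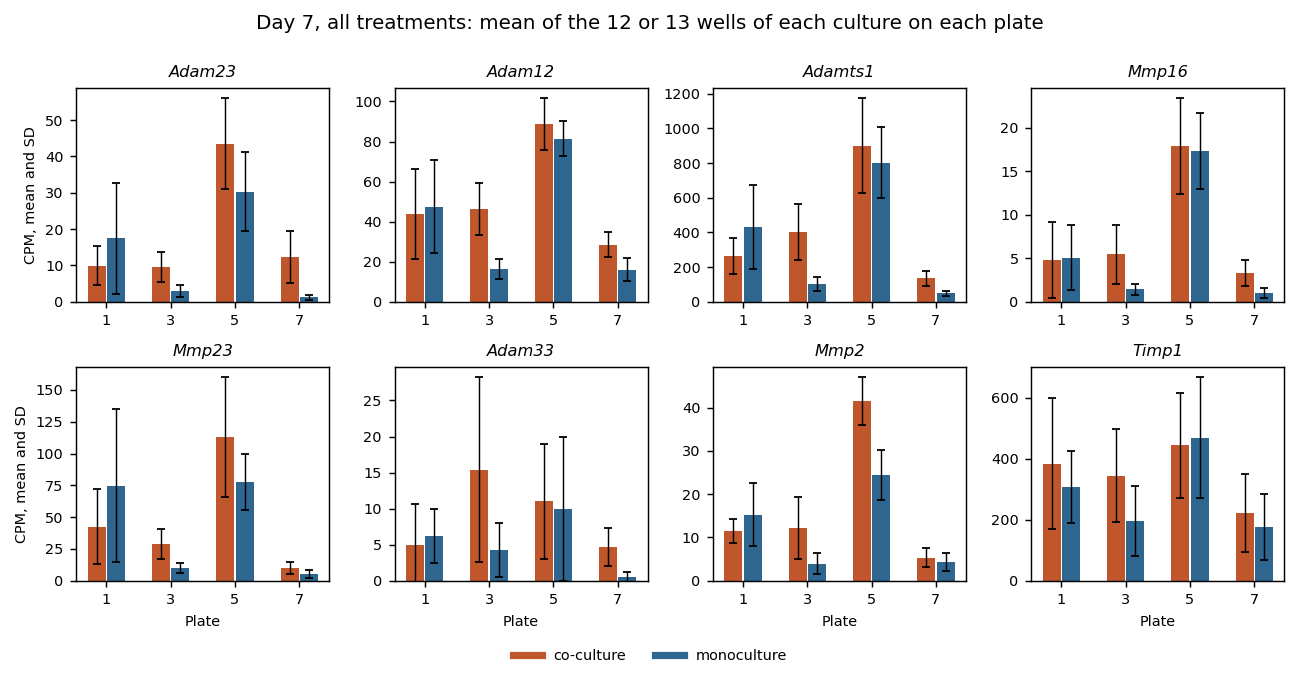
Mean CPM of the wells of all treatments on day 7 by plate, co-culture left of monoculture, with bars of 1 SD over wells, for 7 members called on that day with the plate as a block and for Timp1. Co-culture means are higher on plates 3 and 7 in all panels, and for Adam12 and Adam23 the plate 1 means lie the other way round.

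The third comparison is of each compound with vehicle, as the mean of the responses in the 2 cultures. Comparisons of 1 day share the vehicle libraries of that day, so compounds are set side by side and not tested against each other. At its highest dose, phenobarbital lowered 8 of 36 members on day 1, 5 of 38 on day 3 and 3 of 42 on day 7 and raised none. Over all probes 7.77%, 7.55% and 3.28% were lower and 9.26%, 5.11% and 2.81% higher. Gemfibrozil lowered 3 and raised 1 on day 1 (7.51% and 9.84% of all probes), lowered 3 and raised 2 on day 3 (7.02% and 13.1%) and changed none on day 7 (0% of all probes either way), where 7 members had an unadjusted p under 0.05 and DESeq2 called 0. Ketoconazole lowered 2 on day 1 and 2 on day 3 (9.19% and 2.05%) and none on day 7 (0.146%), and raised none (8.13%, 1.14% and 0.372% of all probes on days 1, 3 and 7). On day 7 of ketoconazole 6 members had an unadjusted p under 0.05, and DESeq2 called 2, Mmp24 and Timp3. These ketoconazole counts are of the mean of both cultures. In monoculture alone edgeR called 1 of 36 members higher on day 1, where 467 of 12504 probes were higher. It was Mmp16, with 35 counts against 0 in vehicle, at least 12.3-fold higher. On day 7, 1 of 42 members was lower in monoculture, where 471 of 13707 probes were lower. In co-culture alone ketoconazole had no member called. For GW7647 edgeR called 0 members on every day, and at an unadjusted p below 0.05 there were 0, 3 and 2. DESeq2 called 1, Adamts7 on day 3. Of all probes edgeR called 0.352%, 0.290% and 0.0219%. As shares of the members tested, the lowered ones were 22.2%, 13.2% and 7.14% for phenobarbital on days 1, 3 and 7, 8.33% and 7.89% for gemfibrozil on days 1 and 3 and 5.56% and 5.26% for ketoconazole on days 1 and 3.

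With the plate as a block, phenobarbital had 34 calls over the 3 days in place of 16 (31 lower and 3 higher), and ketoconazole 15 in place of 4 (10 lower and 5 higher). Over all probes the blocked fit called 11.2%, 12.7% and 8.13% lower with phenobarbital on days 1, 3 and 7, and 11.7%, 14% and 5.25% higher. With ketoconazole it called 11.4%, 5.86% and 1.16% lower and 10.0%, 6.78% and 0.700% higher. The phenobarbital count without the block fell to 6 without plate 5 and 4 without plate 7. It was 2 when the 33 monoculture libraries with the conflicting compound label were left out. No monoculture phenobarbital then remained, so that setting compared co-culture alone, with fewer wells, and not the mean of the 2 cultures. The same holds for each phenobarbital call below that is said to be lost without the conflicting libraries. The gemfibrozil count of 9 became 2 without plate 1 and 0 without plate 5, and the 4 of ketoconazole became 2 without plate 1, 5 or 7. Without plate 5 these 2 were Mmp15 and Timp3, neither of them among the 4. Without plate 1 they were Mmp14, which was among the 4, and Mmp11, which was not. The edgeR test of whether a response differed between co-culture and monoculture called 0 members in 36 comparisons of compound, dose and day, with 0 to 5 members a comparison at an unadjusted p under 0.05. Of all probes it called 6.31e-04% over these comparisons together.

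Mmp14, the membrane-bound collagenase and activator of Mmp2, fell with 3 of the 4 compounds. Phenobarbital at 10 mM gave 90.7, 90.2, 46.6 and 19.3 CPM in co-culture on day 1, against 247, 165, 240 and 123 CPM in vehicle, and 145, 104, 34.5 and 15.3 CPM in monoculture, against 254, 166, 295 and 143 CPM. Co-culture groups did not overlap, and in monoculture only plate 1 of phenobarbital exceeded the lowest vehicle library. Mmp14 fell by 1.56 ± 0.36 on the log2 scale (adjusted p = 0.00125, and 0.0789 without plate 5) and was lower in 8 of 8 pairs of wells on the same plate and in the same culture. On day 3, with plates 1, 5 and 7 present, it had 79.5, 60.6 and 48.3 CPM in co-culture, against 175, 238, 168 and 184 CPM in vehicle, and 77.0, 55.3 and 47.7 CPM in monoculture, against 131, 288, 239 and 279 CPM. No group overlapped its vehicle, and the fall was 1.79 ± 0.42 (adjusted p = 0.00184, and up to 0.142 without plate 5 or 7 or the conflicting libraries). On day 7 it had 190, 94.4, 133 and 48.4 CPM in co-culture, against 178, 197, 306 and 175 CPM, and 107, 43.9, 96.5 and 65.7 CPM in monoculture, against 174, 245, 202 and 230 CPM. The fall was 1.12 ± 0.29 (adjusted p = 0.0104, and up to 0.753 without plate 3 or 7 or the conflicting libraries), with plate 1 of co-culture the exception among 8 pairs.

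Gemfibrozil at 1000 µM gave 113, 209, 26.5 and 91.9 CPM of Mmp14 in co-culture on day 1 and 119, 135, 31.5 and 48.0 CPM in monoculture, against the vehicle values above. Co-culture of plate 3 was above its vehicle and the other 7 of 8 pairs were lower, a fall of 1.06 ± 0.36 (adjusted p = 0.0294, and up to 0.392 without plate 1 or 5 or with DESeq2's size factors). On day 3 co-culture had 40.1, 34.8, 151 and 30.8 CPM on plates 1, 5, 7 and 9, and monoculture 84.2, 14, 29.2, 239 and 125 CPM on plates 1, 3, 5, 7 and 9. Plate 7 was the highest in both, yet all 7 pairs were lower than vehicle, and the fall was 1.42 ± 0.36 (adjusted p = 0.00498, and up to 0.136 without plate 1 or 5). Ketoconazole at 30 µM gave 151, 55.4, 59.8 and 64.7 CPM of Mmp14 in co-culture on day 1 and 181, 72.8, 66.4 and 59.0 CPM in monoculture. Plate 1 was the highest in both cultures, all 8 pairs were lower than vehicle, and the fall was 1.19 ± 0.36 (adjusted p = 0.0139, and up to 0.228 without plate 3 or 5).

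Lower doses did not move Mmp14 past the threshold. On day 3 it averaged 186 ± 55.3 CPM (SD, n = 3) at 0.1 mM phenobarbital, 148 ± 46.4 at 1 mM and 62.8 ± 15.7 at 10 mM in co-culture, with vehicle at 191 ± 32.1 (n = 4). In monoculture it averaged 134 ± 50.3, 149 ± 26 and 60.0 ± 15.2 CPM at the same doses, with vehicle at 234 ± 72.3. In both cultures the lowest mean was at 10 mM. Gemfibrozil gave 239 ± 165, 167 ± 114 and 64.1 ± 57.8 CPM of Mmp14 in co-culture at 10, 100 and 1000 µM (n = 5, 5 and 4), and ketoconazole 339 ± 119, 224 ± 80.5 and 106 ± 38.0 CPM at 1, 10 and 30 µM (n = 4 each), where the highest dose missed the threshold. At lower doses of all compounds, the 2 member calls were Adamts6 and Adam4, both higher with 100 µM gemfibrozil on day 1, where 9.48% of all probes were higher. The alternative settings were not run for these lower doses. Adamts6 was at 47.4, 47.2, 10.9 and 10.7 CPM in co-culture, against 3.44, 3.67, 2.88 and 2.67 CPM in vehicle. In monoculture it was at 7.08, 12.6, 14.6 and 23.7 CPM, against 3.48, 10.2, 3.46 and 0.818 CPM, with overlapping groups (a mean log2 change of 2.44 ± 0.73 over both cultures, adjusted p = 0.0248). Adam4 was at 3.76, 5.16, 0.705 and 2.09 CPM in co-culture and 0.109, 0.574, 1.85 and 2.91 CPM in monoculture, against 1 vehicle library of 8 above 0, at 0.859 CPM.

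Adam19 fell most with phenobarbital on day 3. It had 0.427, 1.50 and 0.343 CPM in co-culture on plates 1, 5 and 7, against 12.3, 30.5, 16.1 and 9.96 CPM in vehicle, and 0, 0.613 and 0 CPM in monoculture, against 9.38, 27.4, 11.8 and 13.8 CPM. The groups were far apart in both cultures, and Adam19 fell by 5.35 ± 0.99 on the log2 scale (adjusted p = 5.80e-05). This call held in all 10 alternative settings. At 0.1 and 1 mM it averaged 8.28 ± 1.81 and 9.37 ± 1.15 CPM in co-culture (SD, n = 3) and 8.18 ± 5.94 and 5.38 ± 3.39 CPM in monoculture, without passing the test. On day 7 Adam19 had 63.0, 13.5, 55.8 and 10.1 CPM with 10 mM in co-culture, against 75.7, 125, 171 and 83.8 CPM, and 17.9, 5.26, 63.7 and 1.33 CPM in monoculture, against 75.7, 52.1, 210 and 71.4 CPM. All 8 pairs were lower, a fall of 1.89 ± 0.48 (adjusted p = 0.00897, and up to 0.571 without plate 3 or 7 or the conflicting libraries). With 1000 µM gemfibrozil on day 3 it had 0.808, 0.904, 24.1 and 1.28 CPM in co-culture on plates 1, 5, 7 and 9 and 2.77, 1.13, 0.743, 5.99 and 2.45 CPM in monoculture on plates 1, 3, 5, 7 and 9. Plate 7 of co-culture lay within the vehicle range, the other 8 libraries were below every vehicle library, and the fall was 1.97 ± 0.69 (adjusted p = 0.0330, lost without plate 1, 3, 5 or 9, up to 0.238).

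**Figure D4:**
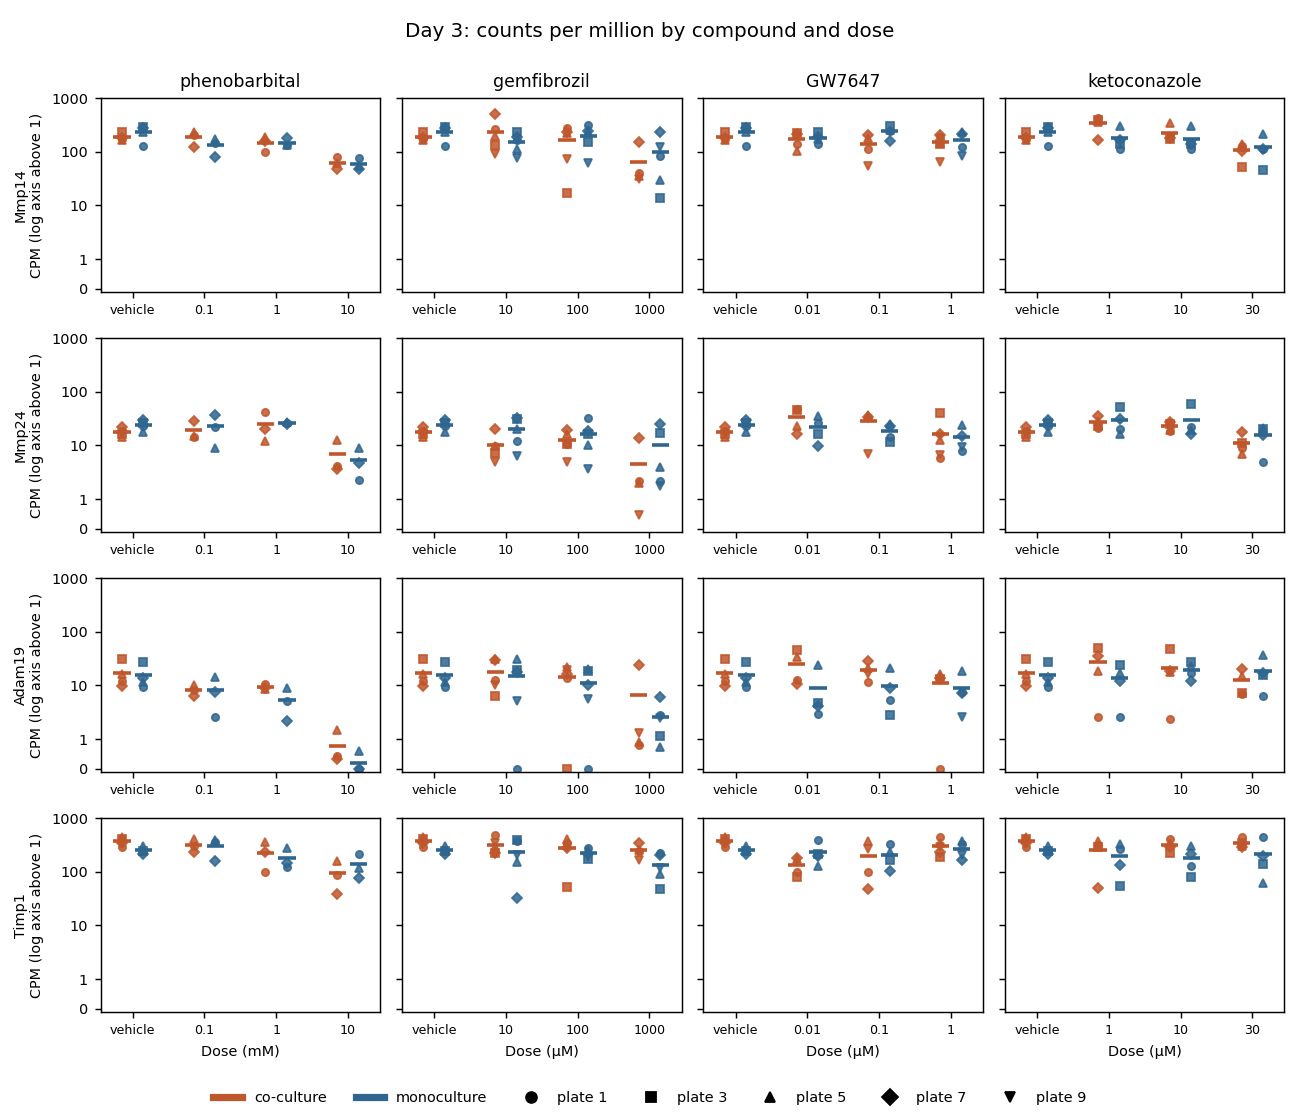
CPM of Mmp14, Mmp24, Adam19 and Timp1 on day 3 by dose of each compound, from vehicle at the left to the highest dose, in co-culture and monoculture, on an axis that is logarithmic above 1 CPM. Points are libraries, their shape gives the plate, and bars are group means. All libraries of 10 mM phenobarbital lie below all vehicle libraries of their culture for Mmp14, Mmp24 and Adam19.

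Mmp24, a membrane-bound MMP known mainly from neurons, also fell with phenobarbital on each day. On day 7 it had 14.4, 3.31, 3.36 and 1.40 CPM in co-culture, against 26.6, 52.7, 7.98 and 16.4 CPM in vehicle, and 1.44, 7.73, 1.89 and 4.92 CPM in monoculture, against 19.0, 90.6, 12.8 and 25.6 CPM. Monoculture groups did not overlap, plate 1 overlapped in co-culture, and all 8 pairs were lower. Mmp24 fell by 2.69 ± 0.55 on day 7 (adjusted p = 9.84e-04, and up to 0.534 without plate 3 or the conflicting libraries). On day 3 phenobarbital gave 4.13, 12.8 and 3.61 CPM in co-culture, against 18.8, 16.2, 14.4 and 21.7 CPM, and 2.28, 8.98 and 4.75 CPM in monoculture, against 23.3, 25.9, 18.1 and 29.7 CPM. The groups did not overlap, and the fall was 1.79 ± 0.52 (adjusted p = 0.0136, and up to 0.268 without plate 1 or 7 or the conflicting libraries). On day 1 the fall was 1.33 ± 0.47 (adjusted p = 0.0381), a call that 6 of 9 alternatives did not keep, up to 0.448. Gemfibrozil on day 3 gave 2.16, 2.03, 13.5 and 0.479 CPM of Mmp24 in co-culture on plates 1, 5, 7 and 9 and 2.13, 17.0, 3.96, 25.4 and 1.73 CPM in monoculture on plates 1, 3, 5, 7 and 9. Plates 3 and 7 were the high ones, and the fall was 1.60 ± 0.45 (adjusted p = 0.00968, and up to 0.139 without plate 1 or 5).

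Timp1 was at 88.6, 161 and 38.5 CPM with phenobarbital in co-culture on day 3 (plates 1, 5 and 7), against 297, 407, 445 and 347 CPM in vehicle, and at 217, 120 and 75.7 CPM in monoculture, against 243, 249, 302 and 212 CPM. Co-culture groups stood apart, and in monoculture plate 1 of phenobarbital just entered the vehicle range. Timp1 fell by 1.43 ± 0.42 (adjusted p = 0.0148, and up to 0.260 without plate 1, 5 or 7 or the conflicting libraries). With the plate as a block it was also lower on day 1, by 1.05 ± 0.30 with phenobarbital (adjusted p = 0.00666) and by 0.92 ± 0.30 with gemfibrozil (adjusted p = 0.0193). Timp3 went opposite ways on day 1 in the blocked fit: with ketoconazole it was higher by 1.23 ± 0.26 (adjusted p = 1.73e-04), and with gemfibrozil it fell by 0.96 ± 0.26 (adjusted p = 0.00430). It had 187, 120, 443 and 244 CPM in co-culture with ketoconazole and 27.2, 35.6, 59.1 and 54.5 CPM with gemfibrozil, against 62.2, 48.8, 205 and 104 CPM in vehicle. Within each plate the 3 co-culture libraries kept that order. Monoculture had 251, 138, 133 and 202 CPM with ketoconazole and 42.5, 14.5, 74.3 and 92.3 CPM with gemfibrozil, against 59.0, 61.4, 178 and 96.6 CPM in vehicle, and there ketoconazole was below vehicle on plate 5. Without the block edgeR called neither change. DESeq2 called both, and edgeR with DESeq2's size factors or without plate 5 called that of ketoconazole. Timp2 was at 0 in all 8 vehicle libraries of day 3 and had 0 to 1.35 CPM with 1000 µM gemfibrozil, at least 5.66-fold higher over the group (adjusted p = 0.0422), a call not kept with the plate as a block, with DESeq2, with no count filter or without plate 1, 3, 5, 7 or 9.

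Single compounds called a few more members. Adam9, a widely expressed sheddase, had 4.55, 4.84, 1.51 and 5.85 CPM with phenobarbital in co-culture on day 1, against 12.3, 6.27, 7.65 and 8.38 CPM, and 2.87, 5.16, 3.22 and 3.28 CPM in monoculture, against 8.64, 12.7, 9.66 and 10.6 CPM. The groups did not overlap, and Adam9 fell by 1.25 ± 0.41 (adjusted p = 0.0245, and up to 0.342 without plate 5 or 7 or the conflicting libraries). Mmp15, a membrane-bound MMP, was at 18.0, 19.0, 8.77 and 14.1 CPM with gemfibrozil in co-culture on day 1, against 15.4, 21.2, 21.9 and 14.3 CPM, and at 3.44, 13.6, 6.41 and 13.6 CPM in monoculture, against 12.4, 13.3, 32.3 and 13.6 CPM. The groups overlapped, and its fall of 0.59 ± 0.21 (adjusted p = 0.0424) was kept by 3 of 8 alternatives. The day 1 calls of phenobarbital also held Adamts14, Adam15 and Adam10, lower by 3.59, 1.75 and 1.00 on the log2 scale, each at group means under 10 CPM. Adamts2 and Mmp11 were called lower too, with Adamts2 at 0 in all phenobarbital libraries of co-culture and Mmp11 in all of monoculture. All 5 calls were lost without the conflicting libraries, and all but that of Adamts14 without plate 5 or without plate 7.

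The remaining calls at the highest doses, in the mean of both cultures, were of low members. Adam15, a widely expressed ADAM, had 0.351 to 2.12 CPM with gemfibrozil in co-culture on day 1, 0 to 3.11 CPM with ketoconazole and 1.94 to 5.77 CPM in vehicle. In monoculture it had 0 to 1.41 CPM with gemfibrozil, 0 to 1.60 CPM with ketoconazole and 2.58 to 6.20 CPM in vehicle. The groups stood apart in monoculture and overlapped in co-culture, and Adam15 fell by 2.23 ± 0.65 with gemfibrozil and 2.08 ± 0.65 with ketoconazole on the log2 scale (adjusted p = 0.0110 and 0.0169). The gemfibrozil call was lost without plate 5, and that of ketoconazole without plate 1 or 5. Adam4 was higher with 1000 µM gemfibrozil on day 1, at 0 to 1.19 CPM in co-culture and 0 to 4.54 CPM in monoculture (adjusted p = 0.0451), a call lost without plate 1, 3, 5 or 7, with DESeq2 and with no count filter. On day 3 Mmp2 had 1.62 to 8.77 CPM with gemfibrozil in co-culture, against 0 to 0.249 CPM in vehicle, and 0 to 16.4 CPM in monoculture, against 0 to 2.04 CPM. Only the co-culture groups were apart, and the call of Mmp2 as higher (adjusted p = 0.0352) was not kept with the plate as a block or without plate 3, 5, 7 or 9. Mmp20, the enamel protease, had 1 count in the 6 phenobarbital libraries of day 3, against 52 counts in the 8 vehicle libraries, a pooled ratio of 0.0156 (95% exact counting interval 3.88e-04 to 0.0909; adjusted p = 0.0167). That call was lost without plate 1, 5 or 7 and without the conflicting libraries.

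Ketoconazole lowered Adamts1 and Mmp19 on day 3. Adamts1 had 7.73, 0.810, 1.49 and 3.66 CPM in co-culture, against 41.8, 16.8, 25.9 and 6.22 CPM, and 5.13, 2.64, 3.10 and 2.65 CPM in monoculture, against 76.3, 2.68, 7.56 and 6.19 CPM. All 8 pairs were lower, although the groups overlapped. Adamts1 fell by 2.73 ± 0.74 (adjusted p = 0.0248, lost when any of plates 1, 3, 5 and 7 was left out, up to 0.271; with the plate as a block the fall was 2.30 ± 0.34). Mmp19 had 82.4, 122, 81.1 and 71.0 CPM in co-culture, against 189, 150, 182 and 141 CPM, and 133, 49.1, 47.0 and 80.8 CPM in monoculture, against 192, 127, 130 and 126 CPM. Co-culture groups did not overlap, 1 monoculture library did, and all 8 pairs were lower, a fall of 0.89 ± 0.23 (adjusted p = 0.0187, and up to 0.289 without plate 1, 5 or 7). With the plate as a block, phenobarbital also lowered Adamts1 on day 7, to 156, 50.5, 332 and 33.0 CPM in co-culture, against 294, 615, 942 and 152 CPM, and to 53.5, 11.8, 358 and 14.6 CPM in monoculture, against 218, 136, 960 and 61.5 CPM. That fall was 2.02 ± 0.40 on the log2 scale (adjusted p = 2.44e-04), in 8 of 8 pairs.

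**Figure D5:**
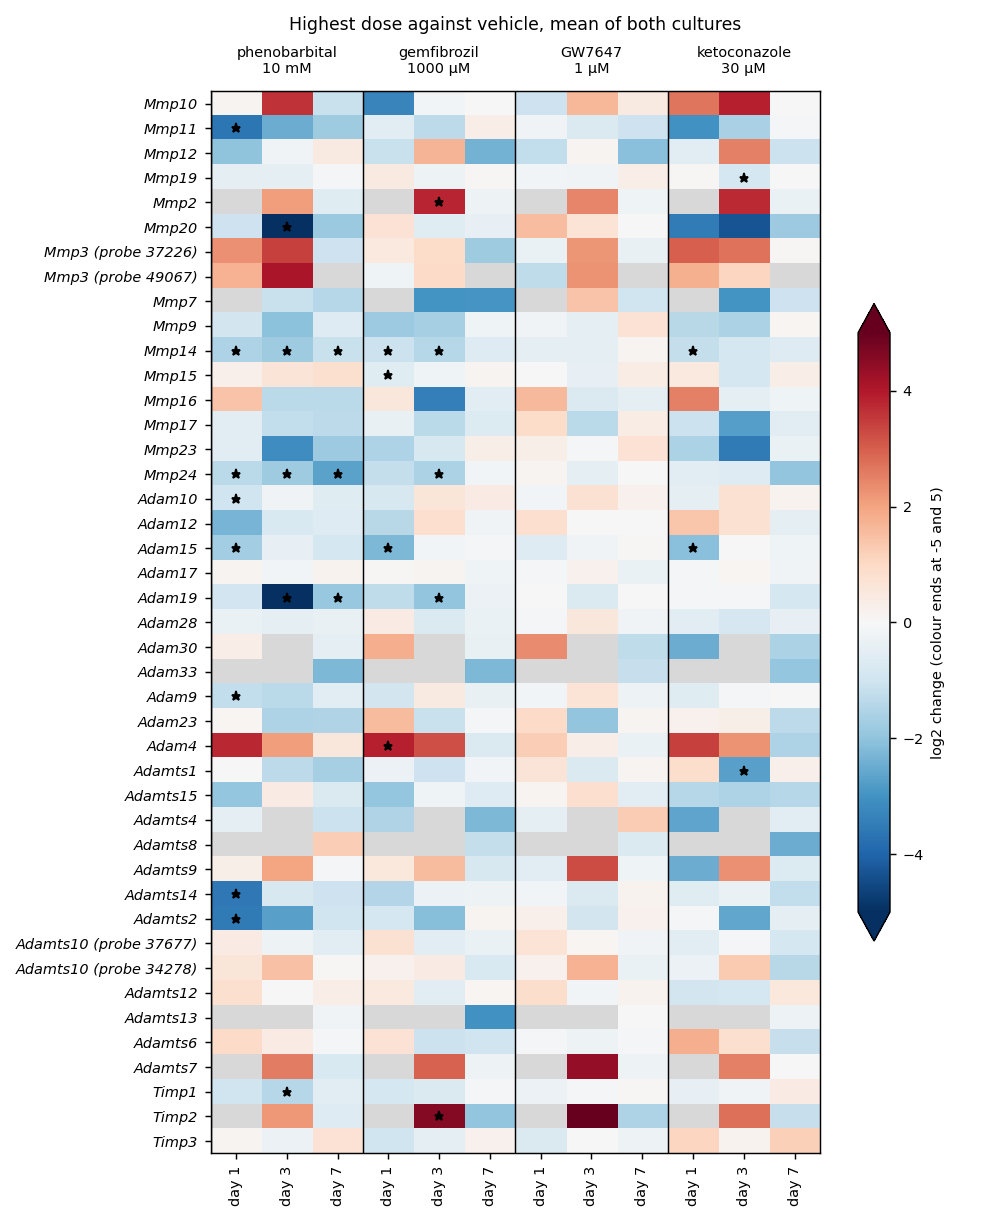
Log2 change of each tested member at the highest dose of a compound against vehicle, as the mean of both cultures, by compound and day, in colour from blue (lower) to red (higher), with a star at an adjusted p under 0.05 and grey where a member was not tested. Stars stand in 16 cells of phenobarbital, 9 of gemfibrozil, 4 of ketoconazole and 0 of GW7647, and Mmp14 has 6 of them.

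Some cell marker lists had a larger share of lower calls with the compounds than all probes, and others lay near it. Of all probes, 7.77%, 7.51% and 9.19% were lower on day 1 with phenobarbital, gemfibrozil and ketoconazole. The shares were 7.55%, 7.02% and 2.05% on day 3, and 3.28%, 0% and 0.146% on day 7. With the plate as a block, phenobarbital had 11.2%, 12.7% and 8.13% lower on the 3 days, and ketoconazole 11.4%, 5.86% and 1.16%. On day 1, 2 of 11 stellate and mesenchymal markers were lower with phenobarbital, 1 with gemfibrozil and 2 with ketoconazole, and with the plate as a block 7, 1 and 3. Of 14 macrophage markers 2, 0 and 3 were lower that day, of 7 cholangiocyte and progenitor markers 3, 3 and 0, of 20 hepatocyte markers 2, 8 and 5, and of 13 endothelial markers none, in the same order of compounds. On day 3 the stellate and mesenchymal sum was 79.8, 227 and 238 CPM (lowest, median and highest) with 10 mM phenobarbital in co-culture, against 482, 608 and 773 CPM in vehicle, and 51.8, 219 and 220 CPM in monoculture, against 333, 761 and 864 CPM. Of 13 such markers tested, 6 were lower with phenobarbital, 5 with gemfibrozil and 1 with ketoconazole on day 3. With phenobarbital, Col1a1, Des, Lum, Postn and Thy1 were at 0 in both cultures on day 3, and of these Des and Lum were also at 0 in vehicle of both cultures. Of 13 macrophage markers 3, 2 and 1 were lower on day 3 in that order of compounds, with 1 higher with gemfibrozil, of 12 endothelial markers 3, 2 and 0, and of 10 cholangiocyte and progenitor markers 2, 5 and 1. In the blocked fit phenobarbital lowered 9 of the stellate and mesenchymal, 8 of the macrophage, 8 of the endothelial and 6 of the cholangiocyte and progenitor markers on day 3. Of 19 hepatocyte markers, 5 were lower with phenobarbital, 7 with gemfibrozil and 2 with ketoconazole that day, and of 31 matrix substrates 13, 13 and 4 were lower. On day 7 phenobarbital lowered 1 of 18 stellate and mesenchymal markers, 3 of 12 cholangiocyte and progenitor, 3 of 13 endothelial and 1 of 13 macrophage markers. It also lowered 1 of 4 neutrophil and lymphocyte markers and 0 of 20 hepatocyte markers that day. Gemfibrozil and ketoconazole lowered none in these lists. In the blocked fit the stellate and mesenchymal counts were 12 for phenobarbital (median log2 change −1.44), 0 for gemfibrozil and 1 for ketoconazole. There phenobarbital also lowered 6 of 13 endothelial and 5 of 13 macrophage markers. The part of these cells in the protease changes was not tested.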

How the data were processed

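Per the labels' protocols, BioSpyder read TempO-Seq lysates and made the count tables, and the submitters' processing notes name Bowtie, with no version. The deposited values are raw counts per probe, not normalized, and 237 of 22253 probe rows had no count. CPM were computed here from library totals scaled by TMM factors taken over all libraries. Probes that passed filterByExpr (minimum count 10) were tested with edgeR 4.0.16 (quasi-likelihood test, TMM scaling, two-sided, Benjamini-Hochberg adjustment over all probes of a fit, threshold 0.05) in R 4.3.3.

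One fit held the 24 vehicle libraries (11823 probes, 36 members), and 1 fit for each of days 1, 3 and 7 held all libraries of that day (12504, 13439 and 13707 probes; 36, 38 and 42 members). A standard error is the log2 change over the square root of the test statistic. The steps were run on simulated counts with planted changes. That simulation had the same spread for all probes and no plate effect. It therefore does not measure error rates where plates differ, as they do here. Alternatives were DESeq2 1.42.0, its size factors, no count filter, the plate as a block, leaving out each plate, libraries under 1000000 counts or libraries with conflicting labels, and a single fit of all libraries. Without the libraries of conflicting labels, phenobarbital was compared with vehicle in co-culture alone.

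The sample titles name the plate, which was taken as a shared batch, so plate numbers pair the libraries. Deviations from group means correlated by 0.176 on average between vehicle libraries of 1 plate and by -0.0579 between plates, and by 0.208, 0.176 and 0.268 against -0.0687, -0.0473 and -0.0890 on days 1, 3 and 7.

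Values in each library are given for called members whose mean reached 10 CPM in 1 of the groups compared, by smallest p, up to 14 over time in vehicle and 4 for each compound and day, and for all TIMPs. Others named fall outside this rule and were chosen after their values were seen. The members and gene lists were chosen with earlier results of these data known. Counting intervals (95%, exact) and floors (3 counts over the group) cover counting error only. Of the 70 names, 68 matched RefSeq symbols.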

Additional observations from a re-analysis of the deposited data

Results flagged for a closer look

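In 28 of 133 combinations of a gene and a group of 4 or 5 libraries, 1 library stood apart from the rest of its group by Dixon's criterion. For single groups of normally distributed values chance gives about 1 in 20, but that rate is no measure here, because genes share libraries and 1 library above 0 among libraries at 0 meets the criterion by construction. Of these, 14 were on plate 5, 6 on plate 1, 5 on plate 7 and 3 on plate 3. Each is the CPM of the 1 library, followed by the range of the others.

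On plate 5 in monoculture vehicle on day 7, Adam19 was at 210 (others 52.1 to 75.7), Mmp2 at 37.8 (6.08 to 6.88), Adam23 at 46.4 (1.49 to 8.37) and Mmp16 at 27.9 (1.49 to 2.54). In co-culture vehicle on day 7 plate 5 had 126 CPM of Adamts2 (8.64 to 27.5), 25.9 of Mmp16 (4.97 to 7.71) and 306 of Mmp14 (175 to 197). Earlier, plate 5 had 2.30 CPM of Adam33 and 6.04 of Mmp16 in co-culture vehicle on day 3, both at 0 in the others. In monoculture on day 3 it had 0.210 CPM of Adam33 (others at 0) and 2.94 of Mmp16 (0 to 0.223). On day 1 plate 5 had 0.111 CPM of Adam33 (0) and 1.89 of Adamts2 (0 to 0.202) in co-culture, and 32.3 of Mmp15 (12.4 to 13.6) in monoculture.

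Plate 1 had 26.6 CPM of Adamts1 in monoculture vehicle on day 1 (5.83 to 8.68), 76.3 on day 3 (2.68 to 7.56), and 192 of Mmp19 on day 3 (126 to 130). With 30 µM ketoconazole on day 1 plate 1 had 151 CPM of Mmp14 in co-culture (55.4 to 64.7) and 181 in monoculture (59.0 to 72.8). With 10 mM phenobarbital on day 7 it had 14.4 of Mmp24 in co-culture (1.40 to 3.36).

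Plate 7 of co-culture with 1000 µM gemfibrozil on day 3 was high for 3 members: Mmp14 at 151 (30.8 to 40.1), Mmp24 at 13.5 (0.479 to 2.16) and Adam19 at 24.1 (0.808 to 1.28). It also had 0.249 CPM of Mmp2 in co-culture vehicle on day 3 (0) and 1.08 of Timp4 in monoculture vehicle on day 7 (0 to 0.156). Plate 3 of monoculture vehicle had 0.286 CPM of Mmp2 (0) and 1.72 of Adamts15 (0 to 0.182) on day 1 and 90.6 of Mmp24 on day 7 (12.8 to 25.6).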

How the results depend on the processing

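In vehicle, the 17 members changed on day 7 against day 1 in co-culture were 11 to 15 when 1 plate was left out, and the 14 of monoculture were 6 to 14. Against day 3, the 15 of co-culture were 8 to 11 with 1 plate left out, and the 12 of monoculture were 1 to 11, and 5 in a fit of all libraries. On day 3 the 3 calls of co-culture were 2 to 4, 6 with DESeq2 and 1 in the fit of all libraries, and the 2 of monoculture were 1 to 3, and 0 in that fit. Between cultures over all wells, the count of 0 was 1 with DESeq2 and 15 with the plate as a block. Over the 3 days, the 16 calls of phenobarbital were 34 with the plate as a block and 4 to 18 with 1 plate left out. They were 2 without the libraries of conflicting labels, a comparison in co-culture alone. The 9 of gemfibrozil were 13 with the block and 0 to 9 with 1 plate left out. For ketoconazole the 4 calls were 12 with DESeq2, 15 with the block and 2 to 5 with 1 plate left out, and for GW7647 the 0 was 1 with DESeq2. With DESeq2's size factors gemfibrozil had 4 higher and 4 lower members in place of 3 and 6, and ketoconazole 1 and 4 in place of 0 and 4. Those factors moved the median of all probes by 0.12 on the log2 scale between days 7 and 3 in both cultures, by 0.17 for GW7647 and by 0.13 for gemfibrozil on day 3.

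Of 52 called changes taken by the rule for named members, none changed sign under any alternative run. DESeq2's size factors lost 3 calls, DESeq2 lost 1, no count filter lost 2 and the block lost 0. Leaving out plate 1, 3, 5 or 7 lost 14, 14, 26 and 14. The fit of all libraries lost 8 of 34 called changes in vehicle. Leaving out the libraries of conflicting labels, which leaves phenobarbital in co-culture alone, lost 8 of 10 of phenobarbital. Fits with a plate or other libraries left out also held fewer libraries, and the cause of these losses was not tested. Members with a few counts per library are limited by depth. Where a whole group held 3 counts or fewer, a bound or a counting interval is given, and the fitted changes of other low members rest on few counts too.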
